A study of Mus musculus with 157 samples.

Results

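The p53 arrest genes measured here were Cdkn1a, the cyclin G genes Ccng1 and Ccng2, Btg2, the Gadd45 genes Gadd45a, Gadd45b and Gadd45g, and the Polo-like kinase genes Plk2 and Plk3. They were picked by symbol and role, with no cutoff on a measured value, but with earlier results of these data known. They make up 9 of the 19600 genes in the count table. Each symbol matched 1 gene, and all 9 passed the filter on low counts for mRNA summed over fractions.

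B cells from spleens of C57BL/6Babr mice were purified with a B cell isolation kit, cultured, lysed and separated on sucrose gradients, and polyadenylated RNA of every fraction was sequenced from its 3′ end. All cultures received LPS, a bacterial mitogen, at 10 µg/ml, and, for the last 3 min, cycloheximide at 100 µg/ml, which holds ribosomes on their mRNA. The LPS group had LPS alone for 48 h. The LPS+ET group had LPS for 48 h and then etoposide, a topoisomerase II poison that leaves double-strand breaks in DNA, at 20 µM for 4 h. The LPS+ET+KU group had LPS for 47 h, then KU55933, an inhibitor of the DNA damage kinase ATM, at 10 µM for 1 h, and then etoposide at the same dose for 4 h. No group here received KU55933 without etoposide, so the inhibitor's own effect and its effect on the etoposide response cannot be told apart. By these times the cultures with etoposide also ran longer than those with LPS alone. In comparisons with LPS, etoposide and the longer culture cannot be told apart. Each group held 4 gradients of 13 fractions, numbered 4 to 16, with 1 gradient under each of the tags LUL15, LUL16, LUL17 and LUL18. These tags come from the column names, which do not say what they stand for, and are called pools here. Gradients are called by treatment and pool tag. The labels do not say which mice or cultures the replicates came from, so that p-values measure the spread between these gradients. Tests over single libraries are an exception, stated where they are reported.

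The counts of a gradient summed to between 6404957 and 21449781, and those of single libraries to between 14724 and 4170688. The 6 libraries under 50000 counts all came from fractions 4 and 12, and 4 of them were LPS libraries. The LPS+ET gradient of pool LUL16 stood apart, with 30.4% of its counts in heavy polysomes (fractions 11 to 16) against 60.5% to 68.2% in the other LPS+ET gradients. The B cell receptor gene Cd79b had a mean of 792.5 CPM (counts scaled to a total of 1000000 for each gradient) in the LPS gradients, 607 with etoposide and 777 with etoposide and inhibitor. Cd79a, which codes for its partner chain, had 87.2, 57.2 and 63.9 CPM in the same order. The B cell list (6 markers) summed to 2059 to 2716 CPM in LPS, 1565 to 2025 in LPS+ET and 1788 to 2469 in LPS+ET+KU. Its LPS and LPS+ET ranges did not overlap, and other genes of the list fell by more or by less than Cd79a and Cd79b. The T cell list (6 of 7 markers in the table) summed to 131 to 159 CPM in LPS, 109 to 296 in LPS+ET and 83.5 to 377 in LPS+ET+KU. Most of it was Lck, while the defining T cell genes Cd3d, Cd3e and Cd3g had a mean of at most 1.13, 0.166 and 0.168 CPM in any group. The myeloid list (6 of 7) summed to 33.5 to 88.6, 51.4 to 165 and 56.6 to 113 CPM in the same order. The part of such cells in the values of the arrest genes was not tested.

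The transcription factor p53 is kept scarce by the ubiquitin ligase Mdm2 and accumulates when ATM and related kinases signal DNA breaks. Among its best known targets is Cdkn1a, whose product p21 halts the cell cycle by binding cyclin-dependent kinases and Pcna. Cyclin G1 brings the phosphatase PP2A to Mdm2, Btg2 slows division and binds the CCR4-NOT deadenylase, and the Gadd45 proteins are small stress-induced proteins that bind p21, Pcna and Cdk1. Plk2 and Plk3 are stress-responsive relatives of the mitotic kinase Plk1.

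Promoter sequence is shown for the 5 members in which 1 of 2 regulatory motifs was found, as a description of these windows. Each window holds 250 bases before and 50 bases after a start site of the RefSeq annotation (GRCm38.p6), on the gene's own strand, and capitals mark the motif. Both strands were searched. The p53 half-site, the 10-base element of which p53 binds a pair, occurred in the windows of Cdkn1a, Ccng1 and Gadd45a, and in 8.36% of 32851 RefSeq promoter windows of that length. Cdkn1a had a pair of exact matches to the half-site, which began 73 and 51 bases before its upstream start site and were separated by 12 bases. Such a pair, with a spacer of at most 13 bases, was present in 24 of the 32851 windows (0.073%). Matches with a differing base were not searched for. The 10 bases right after the second match differ from the half-site at their first base only. Which of these stretches p53 binds was not tested. A second Cdkn1a start site in RefSeq (window chr17:29093519-29093818) held neither motif.
Cdkn1a promoter (chr17:29090729-29091028, plus strand): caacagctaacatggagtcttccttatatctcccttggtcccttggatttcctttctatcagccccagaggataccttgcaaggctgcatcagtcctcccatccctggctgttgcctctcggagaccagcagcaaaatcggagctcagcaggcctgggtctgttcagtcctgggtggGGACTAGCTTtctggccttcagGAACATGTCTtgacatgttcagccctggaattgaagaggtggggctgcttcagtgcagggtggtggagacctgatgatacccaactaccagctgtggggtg
Ccng1 promoter (chr11:40755237-40755536, minus strand): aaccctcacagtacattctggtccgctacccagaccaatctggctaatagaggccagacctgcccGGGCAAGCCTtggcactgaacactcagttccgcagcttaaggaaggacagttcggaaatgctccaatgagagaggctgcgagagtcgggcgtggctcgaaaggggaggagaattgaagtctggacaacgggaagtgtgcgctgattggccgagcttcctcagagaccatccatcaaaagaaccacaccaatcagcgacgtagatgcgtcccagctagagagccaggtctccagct
Gadd45a promoter (chr6:67037358-67037657, minus strand): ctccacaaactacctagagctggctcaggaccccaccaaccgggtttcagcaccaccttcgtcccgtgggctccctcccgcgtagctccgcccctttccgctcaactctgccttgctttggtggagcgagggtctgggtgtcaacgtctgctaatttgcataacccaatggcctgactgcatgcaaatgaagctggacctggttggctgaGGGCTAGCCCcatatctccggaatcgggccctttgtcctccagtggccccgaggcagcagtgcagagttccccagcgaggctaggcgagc
Btg2 and Plk2 held the cAMP response element TGACGTCA, which begins 166 and 62 bases before their start sites and occurred in 1.79% of the windows.
Btg2 promoter (chr1:134079106-134079405, minus strand): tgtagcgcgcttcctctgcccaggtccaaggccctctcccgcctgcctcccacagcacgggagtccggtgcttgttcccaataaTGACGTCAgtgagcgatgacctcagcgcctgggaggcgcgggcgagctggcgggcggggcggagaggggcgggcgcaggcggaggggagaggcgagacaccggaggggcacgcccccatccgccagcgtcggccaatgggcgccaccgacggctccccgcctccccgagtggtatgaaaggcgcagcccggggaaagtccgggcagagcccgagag
Plk2 promoter (chr13:110394794-110395093, plus strand): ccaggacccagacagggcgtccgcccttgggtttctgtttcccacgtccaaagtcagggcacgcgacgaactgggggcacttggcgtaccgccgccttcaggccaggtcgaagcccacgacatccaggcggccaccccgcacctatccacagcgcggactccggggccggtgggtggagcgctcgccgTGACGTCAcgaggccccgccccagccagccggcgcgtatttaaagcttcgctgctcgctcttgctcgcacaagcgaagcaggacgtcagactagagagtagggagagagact
Gadd45b and Gadd45g shared a TATA box (TATAAA, in 13.6% of windows) and an E-box (CACGTG, in 7.15%). The CCAAT box (CCAAT, in 37.4% of windows) was found in Ccng1, Btg2 and the 3 Gadd45 genes, and the NF-kB site (in 4.505%) in no member. No window of Ccng2 or Plk3 held any of these motifs, and no match overlapped another. A match of letters is a description of the window and no evidence of binding.

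Counts were taken at the 3′ ends of transcripts, 1 tag for each molecule, so that levels of different genes can be set side by side without a correction for length. Where the tags fell is shown by the 30 bases that end at the most used poly(A) site of 3 members, written as DNA of the GENCODE M21 transcript with the AATAAA signal in capitals.
Cdkn1a main 3′ end (chr17:29100692-29100721, plus strand): gctggtgctcAATAAAtacttctcgatgat
Ccng1 main 3′ end (chr11:40748552-40748581, minus strand): acacctttcAATAAAatgattgaaatgcaa
Gadd45b main 3′ end (chr10:80932175-80932204, plus strand): agagacattccAATAAActcgttaagcctt
These sites lay in the untranslated last exons and held 84.2% of the counts of Cdkn1a (chr17:29090979-29100722, GRCm38), 55.0% of those of Ccng1 (chr11:40748552-40755311) and 81.7% of those of Gadd45b (chr10:80930091-80932204). All sites of a gene were summed in what follows. The sums take in a site in a coding exon of Plk2 (21.5% of its counts) and a site in an intron of Ccng2 (7.35%). They also take in a second site of Cdkn1a (15.8%) with no AATAAA in its last 30 bases. Whether these are true 3′ ends was not tested.

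In LPS+ET, 5 of the 9 members were higher than in LPS in ribosome-associated mRNA, that is, in the counts of fractions 4 to 16 added up for each gradient. Cdkn1a and Plk2 rose most, followed by Ccng1, Btg2 and Gadd45b, while Gadd45a, Gadd45g, Ccng2 and Plk3 did not pass the test. The background was 7.88% of 12755 genes called higher (edgeR quasi-likelihood test over the 12 gradients, Benjamini-Hochberg adjusted p under 0.01). In the same 5 members, the 4 LPS+ET gradients all lay above the 4 LPS gradients in CPM, which held for 17.3% of all genes tested. In bulk RNA, fewer cells with a transcript and less transcript per cell cannot be told apart.

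Cdkn1a, the gene of the CDK inhibitor p21, stood at 27.1, 22.02, 25.9 and 32.4 CPM in the LPS gradients of LUL15, LUL16, LUL17 and LUL18. In LPS+ET it stood at 758, 501, 724 and 904 CPM, and in LPS+ET+KU at 695, 402, 714 and 837 CPM. Every etoposide-treated gradient was above every LPS gradient, and within each pool the inhibitor gradient was slightly below the etoposide one in these CPM. With each fraction weighted equally, the inhibitor gradient was instead the higher one in LUL15 (627 against 623 CPM) and LUL17 (622 against 592 CPM). Its level was 26.9-fold higher in LPS+ET (mean 722 ± 167 CPM) than in LPS (26.9 ± 4.29, SD, n = 4), and the fold within a pool lay between 22.7 and 27.98. The log2 fold change of the fit was 4.64 (SE 0.29, edgeR adjusted p = 5.3e-07).

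Ccng1, which codes for the PP2A-binding cyclin G1, stood at 73.7, 59.7, 46.4 and 52.4 CPM in LPS. It stood at 867, 605, 545 and 563 CPM in LPS+ET and at 608, 219, 321 and 370 CPM in LPS+ET+KU. The groups with and without etoposide did not overlap, and the inhibitor gradient was the lower one in each pool. The mean rose 11.1-fold from LPS (58.1 ± 11.7) to LPS+ET (645 ± 150), and the fit gave a log2 fold change of 3.35 ± 0.28 (SE) and an edgeR adjusted p of 3.9e-06. Its relative Ccng2 stood at 10.5, 7.15, 9.98 and 9.94 CPM in LPS and at 8.82, 17.2, 11.9 and 11.4 CPM in LPS+ET. These ranges overlapped, and the log2 fold change of 0.29 (SE 0.31) did not pass the test (edgeR adjusted p = 0.574).

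Btg2, an antiproliferative partner of the CCR4-NOT deadenylase, stood at 50.3, 41.3, 52.6 and 45.6 CPM in LPS. It stood at 147, 75.9, 191 and 147 CPM in LPS+ET and at 107, 56.5, 160 and 125 CPM in LPS+ET+KU. Pool LUL16 was the lowest in all 3 groups. The mean was 2.96-fold higher in LPS+ET (140 ± 47.5) than in LPS (47.5 ± 5.01), the log2 fold change being 1.45 (SE 0.31, edgeR adjusted p = 0.0045). This call held without LPS+ET LUL16 (adjusted p = 0.0013) but was lost when any LPS gradient, or LPS+ET LUL15, LUL17 or LUL18, was left out, with adjusted p between 0.0107 and 0.0166.

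The Gadd45 genes, whose products bind p21 and Pcna, differed in level and in response. Gadd45b stood at 56.9, 60.7, 47.3 and 59.2 CPM in LPS, at 119.6, 142, 96.7 and 123 CPM in LPS+ET, and at 209.8, 259.6, 181.5 and 176.5 CPM in LPS+ET+KU. The 3 groups did not overlap, and in every pool the order was LPS, LPS+ET and LPS+ET+KU, from low to high. From LPS (56.0 ± 6.03) to LPS+ET (120.3 ± 18.4) it rose 2.15-fold, with a log2 fold change of 0.99 ± 0.18 (SE) and an edgeR adjusted p of 0.0017. Gadd45g stood at 77.3, 67.3, 41.0 and 56.3 CPM in LPS, at 107, 158, 56.5 and 70.1 CPM in LPS+ET, and at 135, 186, 64.1 and 95.2 CPM in LPS+ET+KU. It was higher with etoposide in each of the 4 pools, but the groups overlapped and its log2 fold change of 0.58 (SE 0.35) did not pass the test (edgeR adjusted p = 0.274). Gadd45a was scarce, at 4.42, 4.84, 2.28 and 4.89 CPM in LPS, 11.2, 7.96, 4.35 and 8.54 CPM in LPS+ET, and 11.1, 15.1, 4.80 and 7.97 CPM in LPS+ET+KU. It too was higher with etoposide in each pool, with a log2 fold change of 0.82 ± 0.36 (SE) and an edgeR adjusted p of 0.128. With the pool as a block in the edgeR fit, Gadd45a was called (0.86, adjusted p = 0.0035), which made 6 of 9 members against a background of 13.9%, while Gadd45g was not (0.50, adjusted p = 0.0169).

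Plk2, a stress-responsive kinase, was scarce in LPS, where the gradients held 17, 11, 12 and 8 counts, or 1.23, 0.566, 1.30 and 0.611 CPM. It stood at 32.9, 27.6, 20.3 and 19.05 CPM in LPS+ET and at 24.2, 8.25, 10.6 and 15.9 CPM in LPS+ET+KU. Its fold within a pool, from LPS to LPS+ET, ranged from 15.6 to 48.8, a spread wider than that of Cdkn1a. The log2 fold change was 4.67 (SE 0.38, edgeR adjusted p = 3.3e-06). Plk3, the other stress-responsive kinase, stood at 2.45 to 3.60 CPM in LPS, 2.14 to 3.88 in LPS+ET and 1.95 to 4.15 in LPS+ET+KU. Its groups overlapped, with a log2 fold change of -0.13 ± 0.28 (SE) and an edgeR adjusted p of 0.796 after etoposide.

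**Figure D1:**
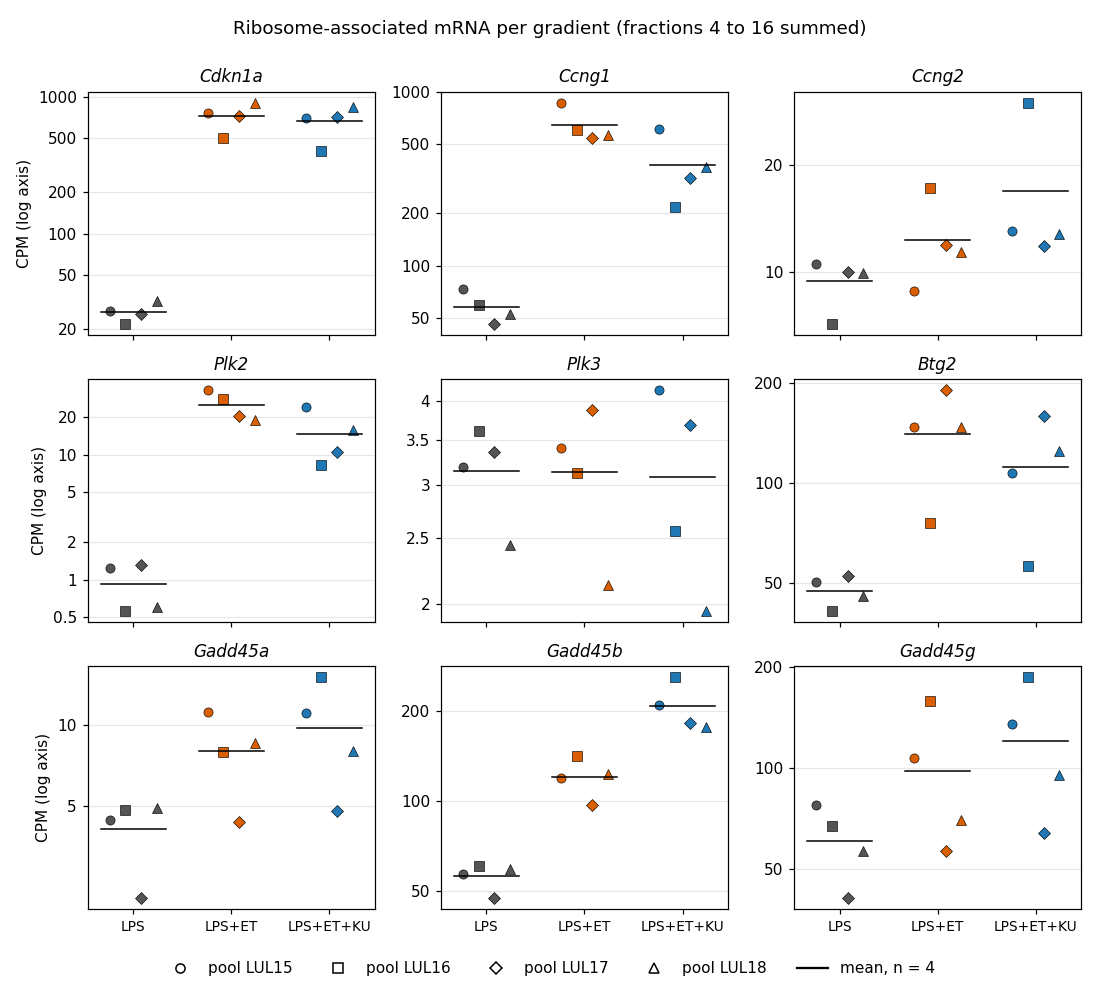
Ribosome-associated mRNA of the 9 members in CPM of each gradient (log scale), with 1 point for each of the 4 gradients of LPS, LPS+ET and LPS+ET+KU and the mean of each group. Cdkn1a, Ccng1, Btg2, Gadd45b and Plk2 show LPS points below all LPS+ET points, while the points of Plk3 overlap between the 3 groups.

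The order of the members changed with treatment. In LPS, Gadd45g (60.5 ± 15.6 CPM), Ccng1, Gadd45b and Btg2 headed the order with ranges that overlapped, Cdkn1a and then Ccng2 followed with ranges of their own, Gadd45a and Plk3 overlapped, and Plk2 (0.928 ± 0.393) was lowest. In LPS+ET, Cdkn1a (722 ± 167) and Ccng1 (645 ± 150) were highest and overlapped. Btg2, Gadd45b and Gadd45g formed a second overlapping group, followed by Plk2 (24.99 ± 6.50) alone, then by Ccng2 and Gadd45a, which overlapped, and by Plk3 (3.14 ± 0.74). In LPS+ET+KU, Cdkn1a (662 ± 184) overlapped Ccng1 (379 ± 165), Ccng1 overlapped Gadd45b (207 ± 38.1), and Gadd45b overlapped Gadd45g (120.0 ± 52.7) but not Btg2 (112 ± 43.0). Plk3 (3.09 ± 1.01) was again lowest and apart from its neighbour Gadd45a.

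The comparison of LPS+ET+KU with LPS+ET asks which of these levels differ when ATM is inhibited before the breaks are made. It uses the same LPS+ET gradients as the comparison above. In edgeR, 0 of the 9 members were called, with a background of 0.455% of 12755 genes called in either direction. At an unadjusted p under 0.05 there were 3 (Gadd45b, Ccng1 and Plk2), where 15.9% of all genes had one, and DESeq2 called 1 member, Gadd45b (adjusted p = 0.0019), and 3.24% of all genes. Gadd45b had a log2 fold change of 0.77 ± 0.18 (SE) and an edgeR adjusted p of 0.0437. It was the only member whose inhibitor gradients all lay above the LPS+ET gradients in CPM, as did those of 4.07% of genes tested. In CPM of summed counts, Cdkn1a, Ccng1, Btg2 and Plk2 were lower with the inhibitor in 4 of 4 pools. For Cdkn1a this did not hold in LUL15 and LUL17 when each fraction was weighted equally. The ratio of LPS+ET+KU to LPS+ET within a pool was 0.803 to 0.985 for Cdkn1a, 0.361 to 0.701 for Ccng1, 0.728 to 0.848 for Btg2 and 0.299 to 0.832 for Plk2. For Ccng1 and Plk2 the lowest ratio was that of LUL16.

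Because same-pool gradients deviated together, a fit that held the pool as a block bears on these differences, and it called Ccng1 and Gadd45b, 2 of 9 members, against a background of 6.36%. In that edgeR fit Ccng1 fell by 0.81 on the log2 scale (SE 0.18, adjusted p = 0.0084) and Gadd45b rose by 0.78 (SE 0.12, adjusted p = 0.0013). Plk2 (log2 fold change -0.83, adjusted p = 0.0228), Btg2 (-0.34, 0.223) and Cdkn1a (-0.14, 0.528) did not pass. Whether the response of Ccng1 to the inhibitor differs from that of Cdkn1a was not tested.

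Against LPS, which is also the control of the first comparison, LPS+ET+KU was higher for Cdkn1a (log2 fold change 4.51), Plk2 (3.89), Ccng1 (2.58) and Gadd45b (1.76). These 4 of 9 members stood against a background of 6.25%. Btg2 (1.14, edgeR adjusted p = 0.0192) and Gadd45a (1.10, adjusted p = 0.0428) did not pass. With the pool as a block 7 of 9 were called, Btg2, Gadd45a and Gadd45g (0.79, adjusted p = 9.1e-04) being added, against a background of 14.9%. Btg2 was also called without LPS+ET+KU LUL16 (1.36, adjusted p = 0.0025). Side by side, the log2 fold change from LPS was 4.64 with etoposide and 4.51 with etoposide and inhibitor for Cdkn1a, 3.35 and 2.58 for Ccng1, 4.67 and 3.89 for Plk2, 1.45 and 1.14 for Btg2, and 0.99 and 1.76 for Gadd45b.

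**Figure D2:**
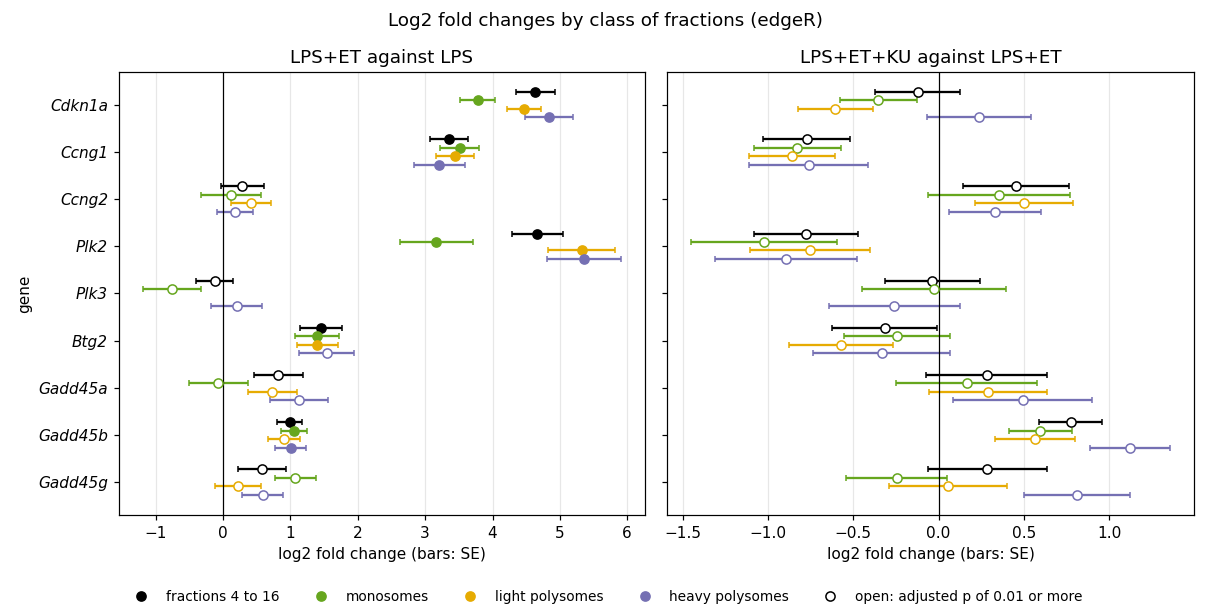
Log2 fold changes of the 9 members with their standard errors (edgeR, n = 4 gradients for each group), for LPS+ET against LPS and LPS+ET+KU against LPS+ET. Each is given for fractions 4 to 16, monosomes (4 to 7), light polysomes (8 to 10) and heavy polysomes (11 to 16). Open symbols mark an adjusted p of 0.01 or more. Over fractions 4 to 16, Cdkn1a and Plk2 lie at 4.64 and 4.67 in the first comparison. Gadd45b is the member at 0.77 in the second, where Ccng1 and Plk2 lie at -0.77 and -0.78.

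The same comparisons were made in monosomes (fractions 4 to 7), light polysomes (8 to 10) and heavy polysomes, in each of which an mRNA carries more ribosomes. After etoposide 5 of 9 members were called higher in monosomes (background 6.44%), 4 of the 8 tested in light polysomes (6.56%) and 4 of 9 in heavy polysomes (6.14%). Plk3 was too scarce to be tested in light polysomes. Cdkn1a, Ccng1 and Plk2 were called in all 3 classes. Cdkn1a rose by 3.78 (SE 0.26) on the log2 scale in monosomes, 4.47 (SE 0.25) in light and 4.84 (SE 0.36) in heavy polysomes, and Plk2 by 3.17 (SE 0.54), 5.33 (SE 0.50) and 5.36 (SE 0.55). Ccng1 rose by 3.51 (SE 0.28), 3.44 (SE 0.28) and 3.21 (SE 0.38) in the same order. Btg2 was called in monosomes (1.39, edgeR adjusted p = 0.0077) and light polysomes (1.40, 0.0055) and not in heavy polysomes (1.54, 0.0177). Gadd45b was called in monosomes (1.05, 0.0017) and heavy polysomes (1.00, 0.0078) and not in light polysomes (0.91, 0.0149). In monosomes only Cdkn1a, Ccng1 and Plk2 were called without LPS LUL15.

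In LPS+ET+KU against LPS+ET, edgeR called 0 members in each class, where 0.213%, 0.292% and 0.572% of all genes were called in monosomes, light and heavy polysomes. At an unadjusted p under 0.05 there were 3 of 9 members in monosomes, 3 of 8 in light and 4 of 9 in heavy polysomes, against 13.5%, 15.3% and 14.9% of all genes. DESeq2 called 0, 0 and 1 members and 1.22%, 2.16% and 2.49% of all genes. Gadd45b had log2 fold changes of 0.60, 0.57 and 1.12 in the 3 classes. The value in heavy polysomes had an edgeR adjusted p of 0.0242, and with the pool as a block it was called (1.10, adjusted p = 0.0029). That block called 5.62%, 5.35% and 3.27% of all genes in monosomes, light and heavy polysomes. With that block Ccng1 fell in monosomes (by 0.88, adjusted p = 3.0e-04) and light polysomes (by 0.91, adjusted p = 0.0022), and Plk2 fell in monosomes (by 1.04, adjusted p = 0.0068). Cdkn1a stood at -0.35 in monosomes, -0.60 in light polysomes and 0.24 in heavy polysomes, and none of these passed.

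The profile over fractions shows in which fractions an mRNA made up more of the library. Each library was scaled to the same total before a gene's fractions were compared, because equal amounts of RNA were taken from the fractions and their totals do not measure mRNA. The share of a gene in a class is its CPM there over its CPM in all 13 fractions. It weighs every fraction equally and does not give the part of the gene's molecules found in that class. The median heavy polysome share over 8000 genes with a mean of at least 100 counts for each gradient was 55.2% in LPS, and with etoposide it was 53.9% without and 54.7% with the inhibitor. Scaling fixes the share of all counts in heavy polysomes at 6 of 13 fractions in every gradient. These medians therefore cannot show a change common to all mRNA.

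The mean profile of Cdkn1a was highest in fraction 4 in LPS (25.1% ± 17.98), in fraction 12 in LPS+ET (15.0% ± 6.95) and in fraction 11 in LPS+ET+KU (17.1% ± 3.70). The LPS value of fraction 4 rests on as few as 1 count in a library. Its heavy polysome share was 32.4%, 37.6%, 61.2% and 24.2% in the LPS gradients of LUL15 to LUL18. It was 48.4%, 43.9%, 58.95% and 56.98% in LPS+ET and 60.3%, 59.3%, 66.9% and 65.6% in LPS+ET+KU. LPS LUL17 was the one LPS gradient above the LPS+ET gradients, its fraction 12 library being among the 6 shallow ones, and the LPS+ET+KU gradients all lay above the LPS+ET gradients.

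In this measure Cdkn1a had more heavy polysome share in LPS than 20.6% of the 8000 genes had, more in LPS+ET than 45.7% had and more in LPS+ET+KU than 70.04% had. The difference of 13.2 points between LPS+ET and LPS did not pass (exact permutation test over 70 splits, two-sided, p = 0.2). Without LPS LUL17 it was 20.7 points. The exact p of 0.0286 for that value was fixed by leaving out the only LPS gradient not below the LPS+ET ones, and decides nothing. Without fractions 4 and 12 the difference was 5.89 points (exact p = 0.0857). The difference of 11.0 points between LPS+ET+KU and LPS+ET had an exact p of 0.0286, the smallest this design allows.

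In scaled profiles, Gadd45b and Gadd45g also had a larger heavy polysome share under the inhibitor. The heavy polysome share of Gadd45b was 52.3%, 45.8%, 45.6% and 51.9% in LPS, 50.2%, 43.4%, 54.3% and 54.5% in LPS+ET, and 59.1%, 61.1%, 60.5% and 59.8% in LPS+ET+KU. Its LPS and LPS+ET gradients overlapped, and all 4 inhibitor gradients lay above them within a narrow band. That of Gadd45g was 33.6%, 34.7%, 30.5% and 35.7% in LPS, 40.7%, 32.5%, 40.1% and 40.2% in LPS+ET, and 45.5%, 41.3%, 48.1% and 44.0% in LPS+ET+KU. From LPS+ET to LPS+ET+KU the share was higher by 9.49 points for Gadd45b and by 6.34 points for Gadd45g (exact permutation p = 0.0286 for both).

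With Cdkn1a these were 3 of the 7 members among the 8000 genes whose LPS+ET+KU gradients all lay above the LPS+ET gradients in heavy polysome share, as did those of 3.55% of these genes. Without fractions 4 and 12, which hold every shallow library, the 3 differences were 12.2, 7.40 and 6.20 points (exact p = 0.0286 each). On counts as deposited, without scaling each library, their exact p was 0.686, 0.943 and 0.8286. By sign flips of the 4 pool differences, a test that respects the pools, p was 0.125 for each, the smallest possible. In all, 18 such tests of heavy polysome share were made (9 members in 2 comparisons), and the p-values are not adjusted.

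Plk2 had the largest difference in share after etoposide. Its heavy polysome share was 19.5%, 47.5%, 33.1% and 2.21% in LPS and 58.9%, 73.7%, 55.2% and 55.6% in LPS+ET. The LPS values rest on 8 to 17 counts for a whole gradient. The shallow fraction 4 made up 55.0% ± 26.2 of the LPS profile, from 1 count in each gradient. The difference of 35.3 points had an exact permutation p of 0.0286, and without fractions 4 and 12 it was 27.2 points with p = 0.0857. In LPS+ET, Plk2 peaked in fraction 14 with 20.5% ± 5.55 of its profile, and 18.6% ± 3.33 sat in fraction 16. In LPS+ET+KU it also peaked in fraction 14 (17.9% ± 10.7), and its heavy polysome share was 57.4% ± 12.8.

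In LPS the mean profiles of Ccng1 (12.9% ± 11.1) and Btg2 (15.4% ± 12.1) were also highest in fraction 4, on as few as 1 count in a library. Ccng1 kept a light profile with etoposide. It peaked in fraction 9 in LPS+ET (13.0% ± 0.780) and in fraction 8 in LPS+ET+KU (13.1% ± 1.56). In LPS its heavy polysome share was 35.4% ± 7.94 (SD, n = 4), in LPS+ET 31.97% ± 5.20 and with the inhibitor 32.5% ± 6.16, and only 12.1% of the 8000 genes had a lower share in LPS+ET. The share of Btg2 was 33.6% ± 5.90, 39.3% ± 2.26 and 38.8% ± 4.32, that of Ccng2 36.7% ± 5.87, 35.1% ± 7.23 and 36.6% ± 5.34, that of Gadd45a 31.7% ± 5.90, 36.6% ± 18.4 and 42.6% ± 1.65, and that of Plk3 26.6% ± 8.18, 29.5% ± 17.0 and 27.7% ± 7.76. None of the differences of these 5 members had an exact permutation p under 0.05. Without LPS LUL15 the difference of Btg2 after etoposide was 8.03 points, and without LPS+ET LUL16 that of Gadd45g was 6.71 points, against 4.75 with it. Each gradient left out was the only one of its group within the range of the other group. The exact p of 0.0286 for both was therefore fixed by the removal and decides nothing.

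**Figure D3:**
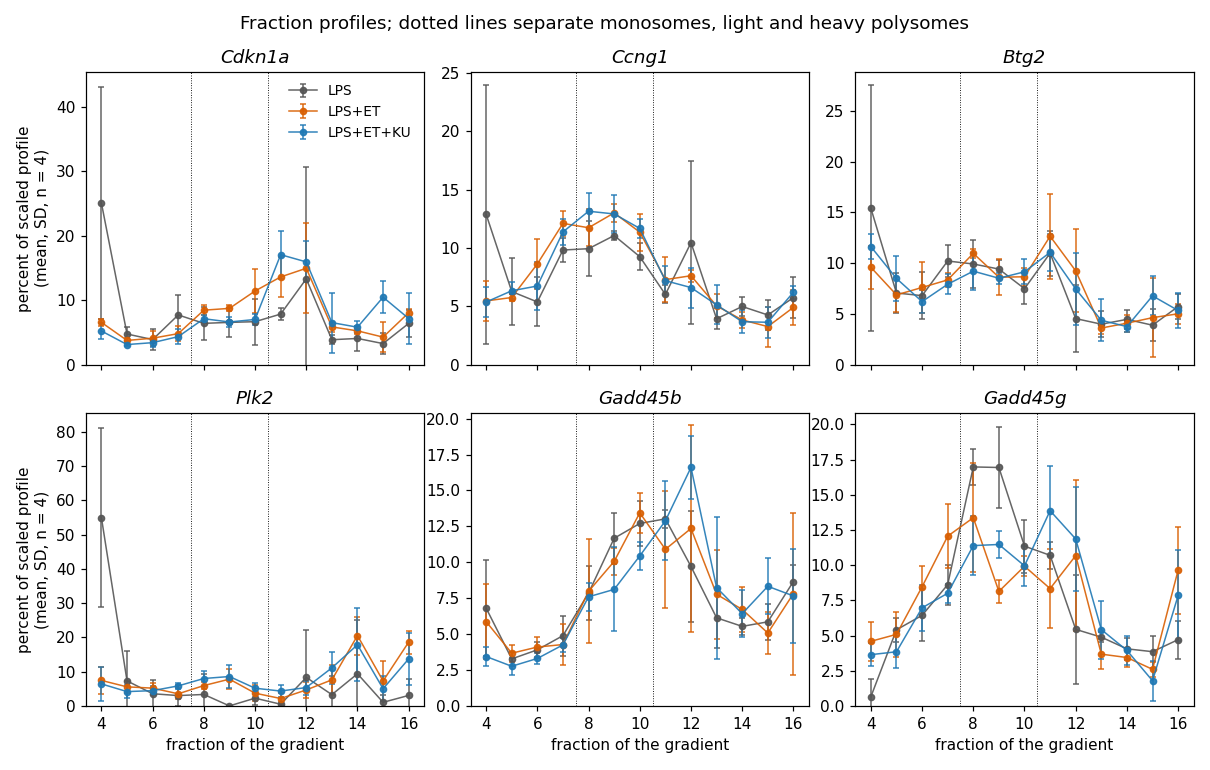
Fraction profile of 6 members (Cdkn1a, Ccng1, Btg2, Plk2, Gadd45b and Gadd45g), as the mean percent of a gene's scaled counts in each of fractions 4 to 16, with the SD of 4 gradients, for LPS, LPS+ET and LPS+ET+KU. In LPS, Cdkn1a, Ccng1, Btg2 and Plk2 peak in fraction 4, where some libraries were shallow. With etoposide, Cdkn1a peaks in fractions 12 (LPS+ET) and 11 (LPS+ET+KU), Plk2 in fraction 14, and Ccng1 in fractions 9 (LPS+ET) and 8 (LPS+ET+KU).

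**Figure D4:**
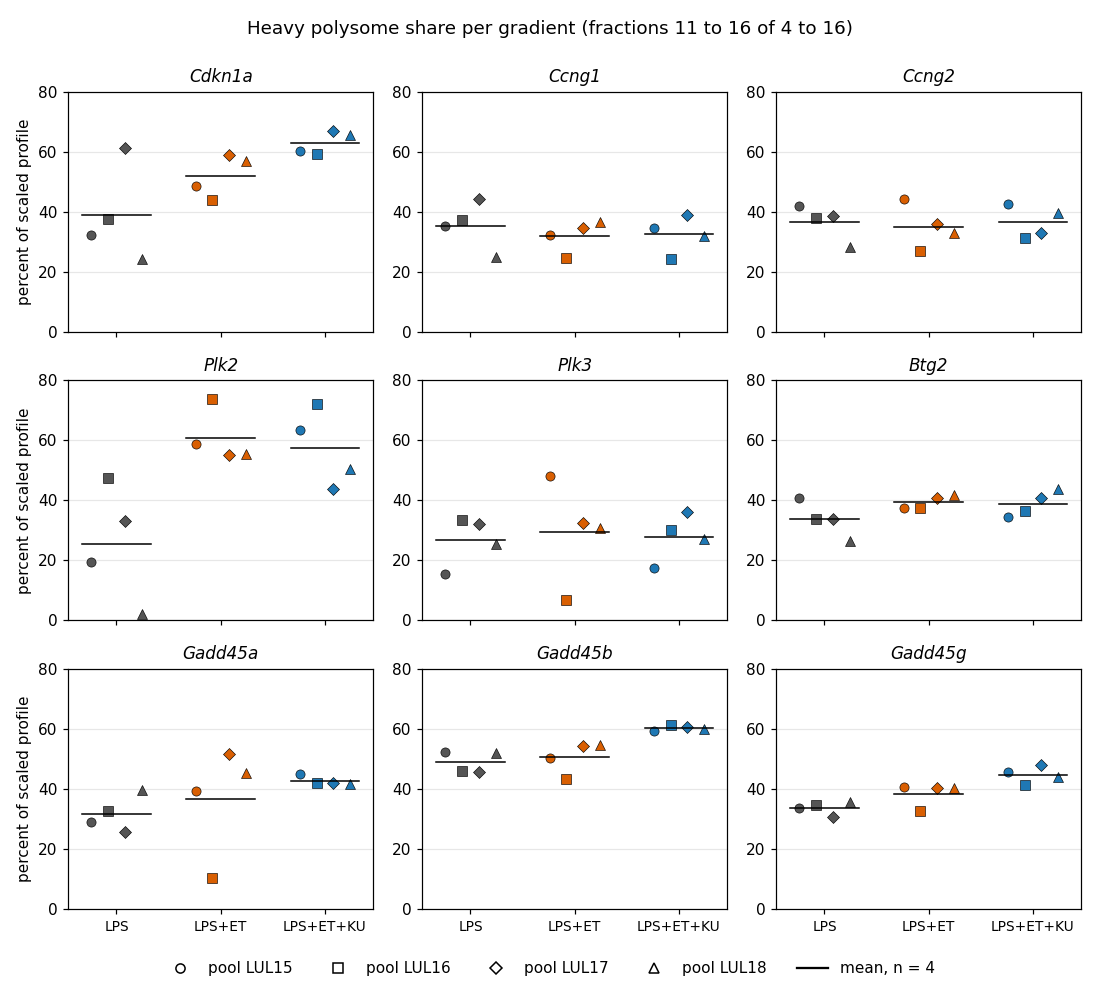
Heavy polysome share of the members in percent, with 1 point for each of the 4 gradients of LPS, LPS+ET and LPS+ET+KU and the mean of each group. The LPS+ET+KU points of Cdkn1a (59.3% to 66.9%), Gadd45b (59.1% to 61.1%) and Gadd45g (41.3% to 48.1%) lie above all LPS+ET points of the same gene.

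The mean fraction, weighted by the scaled counts, is a second summary of the scaled profile. For Plk2 it was 6.92 in LPS and 11.4 in LPS+ET (exact permutation p = 0.0286), a difference of 4.49 fractions that was 2.59 without fractions 4 and 12 and 1.68 on counts as deposited (exact p = 0.0286 for both). From LPS+ET to LPS+ET+KU the Plk2 value differed by -0.332 (exact p = 0.6) and, on counts as deposited, by -0.806 (exact p = 0.0286). For Cdkn1a it was 8.85 in LPS, was 10.4 in LPS+ET and stood at 10.9 in LPS+ET+KU, with an exact p of 0.0857 in both comparisons. On counts as deposited its groups stood at 10.5, 10.6 and 10.61 in that order, with exact p of 0.914 and 1. From LPS+ET to LPS+ET+KU it was higher by 0.511 fractions for Gadd45b and by 0.625 for Gadd45a (exact permutation p = 0.0286 for both). Without fractions 4 and 12 these differences were 0.374 and 0.587 (exact p = 0.0571 for both), and on counts as deposited they were -0.099 and 0.00072 (exact p = 0.857 and 1). For the other 5 members the exact p lay between 0.0571 and 0.971 in the 2 comparisons. As for heavy polysome share, 18 such tests of mean fraction were made, and their p-values are not adjusted. The permutation does not hold the pools together, and by sign flips of the pool differences no p of either measure can be under 0.125.

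A test of heavy polysome share over all 8000 genes called none of the 7 members it could include in either comparison (limma on the logit scale, adjusted p under 0.01), with 0.325% of genes called after etoposide and 0% when the inhibitor was added. Of the members with an unadjusted p under 0.05 there was 1 in the first, Plk2 (log2 odds higher by 2.69, SE 0.78, adjusted p = 0.0751), and 1 in the second, Gadd45b (0.56, SE 0.20, adjusted p = 0.427). Of all genes 20.7% and 8.61% had such a p, so that 1 of 7 members was no more than the share of genes in the first. Gadd45a and Plk3 had too few counts to be included.

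Models of all 13 fractions at once tested whether a gene's fraction counts differed with treatment in level or shape (polysome distribution) and whether they differed in shape alone (treatment by fraction interaction). Both could be fitted for 8 members, without Plk3. Libraries of 1 gradient are not independent. The interaction model held a term for each gradient, but the distribution model did not and treated its libraries as independent. Its p-values therefore do not measure the spread between gradients. In LPS+ET against LPS the polysome distribution was called for 7 of the 8, all but Ccng2 (edgeR adjusted p = 0.361), with a background of 31%. The 7 include Gadd45a and Gadd45g, which did not pass on counts summed for each gradient (edgeR adjusted p = 0.128 and 0.274). The interaction was called for 1 of 8, Gadd45g (adjusted p = 0.0021), with a background of 5.72%. In Gadd45g, fractions 8 and 9 held 17.0% ± 1.27 and 16.9% ± 2.85 of the LPS profile and 13.4% ± 3.88 and 8.13% ± 0.802 of the LPS+ET profile. This call rested on single gradients: it was lost without LPS LUL15 (adjusted p = 0.0423), LPS LUL17 (0.0183), LPS LUL18 (0.0167) or LPS+ET LUL18 (0.0477), and the members called numbered 0 to 3. Cdkn1a had an adjusted p of 0.0115 and was called without LPS LUL17 (0.0091), LPS+ET LUL15 (9.9e-04) or LPS+ET LUL16 (5.4e-04). Gadd45a had 0.0174 and was called without LPS+ET LUL15 (0.0093).

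In LPS+ET+KU against LPS+ET the polysome distribution was called for 2 of the 8, Gadd45b (edgeR adjusted p = 3.2e-05) and Ccng1 (adjusted p = 0.0018), with a background of 8.01%. With the pool as a block Btg2 was called as well (adjusted p = 0.0045), against a background of 18.3%. The call of Ccng1 was lost without any one of LPS+ET LUL15 (adjusted p = 0.139), LUL17 (0.0256) and LUL18 (0.0325) or LPS+ET+KU LUL16 (0.0571), LUL17 (0.0167) and LUL18 (0.0401). The interaction was called by edgeR for 0 of 8 members, with a background of 3.63%. At an unadjusted p under 0.05 there was 1, Cdkn1a (adjusted p = 0.260), where 19.1% of genes had one.

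Other genes of the pathway were read from lists by role, as counts of genes called in ribosome-associated mRNA and as medians, beside a median of 0.03 over all genes after etoposide and 0.04 between the inhibitor and etoposide groups. Of 12755 genes, edgeR called 1005 higher and 613 lower after etoposide, and 58 in either direction between the inhibitor and etoposide groups. The 9 members had a median log2 fold change of 0.99 in the first comparison and -0.04 in the second. Of p53 itself and its feedback regulators, 3 of 5 rose with etoposide and none fell (median 2.13). They were the ligase gene Mdm2 (2.40, SE 0.22), the phosphatase gene Ppm1d (2.13, SE 0.15) and Trp53inp1 (2.56, SE 0.41), a p53 cofactor. Trp53 stood at 0.47 (SE 0.22, edgeR adjusted p = 0.148). In LPS+ET+KU against LPS+ET this list had a median of -0.73 and Ppm1d was the 1 gene called, falling by 1.14 on the log2 scale (edgeR adjusted p = 0.0018).

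Of other p53 targets that restrain growth or signalling, 6 of the 9 tested rose with etoposide and none fell (median 1.76), with Phlda3 (5.29), an inhibitor of Akt signalling, Zmat3 (3.31), a zinc finger protein, Sesn2 (2.86), a stress sensor, Gtse1 (2.71), Ddit4 (1.76), an inhibitor of mTORC1, and Ptprv (1.01). With the inhibitor 0 of the 9 were called by edgeR, 4 had an unadjusted p under 0.05, against 15.9% of all genes, and the median was -0.54. Of other CDK inhibitor genes, 2 of 6 rose with etoposide, Cdkn2c (1.27, p18) and Cdkn1c (2.09, p57), the latter from 0.406 to 1.89 CPM. Cdkn1b, the p27 relative of p21, stood at -0.85 (SE 0.32, edgeR adjusted p = 0.0691).

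Of the cyclins, kinases and Pcna to which p21 or Gadd45 bind, 1 of 12 was called after etoposide, Ccnb1, the mitotic cyclin B1, which fell by 1.50 on the log2 scale (edgeR adjusted p = 1.7e-04). The list's median was -0.68, and 1 of its 12 values was above 0. Of the BTG/TOB family and its partners, 1 of 6 rose, Tob1 (2.74), and Btg1 stood at -0.34 (SE 1.10). Of the 6 cyclin G partners, 2 fell, the PP2A subunit genes Ppp2r5c (by 0.61) and Ppp2r5e (by 0.87). Of the other 3 Polo-like kinases, Plk1 fell by 2.39 and Plk4 by 0.71, and Plk5 rose from 0.0372 to 1.55 CPM. In the same comparison Plk2 rose and Plk3 did not pass the test (3.15 ± 0.50 CPM before and 3.14 ± 0.74 after). When the inhibitor was added, no gene of these 4 lists or of the CDK inhibitors was called by edgeR. At an unadjusted p under 0.05 there were 3 of the 12 cyclins, kinases and Pcna, 1 gene in each of the other three lists, and 3 of the 6 CDK inhibitors, beside 15.9% of all genes.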

How the data were processed

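Polyadenylated RNA of sucrose gradient fractions was sequenced from its 3′ end, 157 libraries in all (156 of fractions 4 to 16, and 1 of fraction 17 with 777 counts, in which all 9 members were at 0 and which was not used). The authors removed PCR duplicates by random barcodes, mapped reads to GRCm38 and deposited raw counts for each gene and library, summed over the gene's poly(A) sites. Identical RNA concentrations from the fractions entered library preparation. The submitters' processing notes name TopHat2 2.0.12, HTSeq and DESeq2 1.6.3 without their role for these libraries.

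Column names gave treatment, fraction and the tag called a pool here. They matched 1 sample for 79 libraries and only the treatment and fraction for 78 (pools LUL16 and LUL18). Library totals had a median of 811932 counts, and 3 counts is the floor that a count of 0 allows, for counting error only. Fractions were summed for each gradient and class and tested with edgeR 4.0.16 (TMM, low counts filtered, treatment only, all 12 gradients), Benjamini-Hochberg adjusted p under 0.01. Polysome distribution and interaction were tested over single libraries in edgeR, with a term for each gradient in the interaction model only. Heavy polysome share of genes that averaged at least 100 counts was tested with limma 3.58.1, and for single members by exact permutation of 4 against 4 gradients (two-sided). Tools ran in R 4.3.3 and Python 3.11.15. On simulated counts for LPS+ET against LPS (12446 genes), edgeR recovered 13% of 2-fold and 99% of 8-fold changes, with 1 false call.

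Gradients that shared a pool tag deviated together from their group means. In 12 of 12 same-pool pairs r was 0.305 to 0.799, and in 5 of 36 different-pool pairs it was over 0.1. Pools were therefore taken to pair gradients. Alternatives were DESeq2 1.42.0, other scaling and filters, the pool block and each gradient left out. Named are the 9 members, listed genes that were called, and the 3 genes most like each member in log2 CPM. Members, though defined by symbol, and lists were chosen with earlier results of these data known. One of the B cell markers and one member's 3′ end sequence are not reported here.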

Additional observations from a re-analysis of the deposited data

Results flagged for a closer look

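Of 54 groups of 4 gradients examined (9 members, 3 treatments, and CPM or heavy polysome share), 4 held a gradient that stood apart from the other three by Dixon's criterion at 95%. Chance flags about 1 in 20 groups, or 2.7 of 54. Ccng2, the cyclin G2 gene, stood at 29.8 CPM in LPS+ET+KU LUL16 against 11.8 to 13.0 in the other inhibitor gradients, and at 7.15 CPM in LPS LUL16 against 9.94 to 10.5 in the other LPS gradients. The heavy polysome share of Gadd45a was 45.1% in LPS+ET+KU LUL15 against 41.7% to 41.9%. That of Gadd45g was 32.5% in LPS+ET LUL16 against 40.1% to 40.7%. LPS+ET LUL16 is the gradient with 30.4% of all its counts in heavy polysomes, and its part in the Gadd45g value was not tested.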

How the results depend on the processing

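In LPS+ET against LPS, the same 5 members (Cdkn1a, Ccng1, Btg2, Gadd45b and Plk2) were called in ribosome-associated mRNA by edgeR and DESeq2. Of 12755 genes, edgeR called 1005 higher and DESeq2 called 1331 higher. Most changes came in LPS+ET+KU against LPS+ET, where edgeR called 0 members: DESeq2 called 1, a threshold of 0.05 gave 1 and the pool block 2, and in its classes the block gave 2 (monosomes), 1 (light) and 1 (heavy polysomes), with 1 in heavy polysomes by DESeq2 and 1 with each fraction weighted equally. Over all genes, the threshold of 0.05 gave 319 of 12755. Equal weights gave 20 of 12274 over all fractions and 16 of 11071 in heavy polysomes. The block gave 7 in LPS+ET+KU against LPS and changed no other count of members by over 1.5 times. Equal weights gave 2 in monosomes after etoposide (296 of 9494 genes higher). Treatment in place of a term for each gradient gave 0 interactions (142 of 10360 genes after etoposide). The causes were not tested. Leaving out single gradients gave 3 to 5 members in monosomes and 0 to 3 interactions after etoposide, and 1 to 2 distributions under the inhibitor.

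Signs turned only for differences that passed no test, apart from the mean fraction of Gadd45b. With single gradients left out, log2 fold changes under the inhibitor ran from -0.29 to 0.061 (Cdkn1a), -0.02 to 0.50 (Gadd45a), -0.011 to 0.65 (Gadd45g) and -0.17 to 0.11 (Plk3, 0.058 with equal weights). Differences in heavy polysome share ran, after etoposide, from -4.70 to 1.08 points (Ccng2), -0.074 to 13.8 (Gadd45a) and -3.31 to 10.4 (Plk3). Under the inhibitor they ran from -1.94 to 3.20 (Ccng1), -1.17 to 4.61 (Ccng2), -2.15 to 1.03 (Btg2), -2.84 to 11.0 (Gadd45a), -8.33 to 1.11 (Plk2) and -9.37 to 4.36 (Plk3). Without fractions 4 and 12 they were 3.84 (Ccng2) and -0.063 (Gadd45b) after etoposide, and -1.61 (Ccng2) and 1.79 (Btg2) under the inhibitor. On counts as deposited they were -6.38 (Ccng1), -6.84 (Ccng2) and -1.24 (Gadd45a) under the inhibitor. The mean fraction of Gadd45b differed by -0.167 (as deposited) and -0.008 (without fractions 4 and 12) after etoposide, and by -0.099 (as deposited) under the inhibitor, against 0.511 scaled. Depth limits Plk2 in LPS (8 to 17 counts), Gadd45a and Plk3.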

Other observations

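For each member with a mean of at least 100 counts in a gradient, the genes with the most similar level over the 12 gradients were read off by Pearson's r of log2 CPM, among 7999 other genes. The 12 points share 4 pools and 3 treatments, so that r describes these gradients only. Nearest to Cdkn1a were Tsc22d1 (r = 0.993), Cox6b2 (0.991) and Rhod (0.990), nearest to Ccng1 Vopp1 (0.991), Zfp365 and Klhl26 (0.990 each), and nearest to Plk2 Ulbp1 (0.994), Zfp703 (0.986) and Phlda3 (0.983), a p53 target of the lists above. Btg2 was nearest to Mapkapk3 (0.988), Tmem184b (0.984) and Blcap (0.980). Gadd45b was nearest to Prmt2 (0.978), Dnajc12 (0.965) and Xpa (0.956), and Gadd45g to Rasgef1b (0.971), Sap25 (0.967) and Nfkbil1 (0.964). For Ccng2 the nearest were Tubg2 (0.958), Maff (0.929) and Ap3m2 (0.921). Among the members, r was 0.981 for Ccng1 with Plk2 and 0.959 for Cdkn1a with Plk2, while Btg2 had -0.08 with Ccng2 and -0.10 with Gadd45g.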
